A study of Mus musculus with 22 samples.

Results

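The genes described here are 9 genes of retinoid (vitamin A) storage and metabolism, followed in mouse liver across 2 genotypes and 2 diets. They were taken by symbol, and each symbol matched 1 row of the 55573 genes counted. They comprise Lrat, Rbp4, Ttr, Rdh10, Aldh1a1, Aldh1a2, Bco1, Cyp26a1 and Cyp26b1. Of the 9 genes, 8 averaged 10 or more counts per liver and so entered the test, which covered 14062 genes in all. Aldh1a2 did not and is described by its counts.

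Retinol reaches the liver as retinyl esters in lipoprotein remnants, which hepatocytes take up and hydrolyse. Most of it is passed to hepatic stellate cells, where lecithin retinol acyltransferase (Lrat) esterifies it again for storage in lipid droplets, and these droplets are lost when stellate cells turn into myofibroblasts in a fibrotic liver. Retinol leaves the liver bound to Rbp4, which circulates with transthyretin (Ttr), or is oxidised to retinal and then to retinoic acid, the ligand of the retinoic acid receptors, which the Cyp26 enzymes break down.

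Liver mRNA of 22 mice was sequenced, 1 library per mouse, and the values below are reads counted per gene. Controls (Cre mice) were Flcn WT/WT with Albumin-cre+/-, and FLCN KO mice were Flcn f/f with the same transgene, so both genotypes carried Albumin-Cre, whose promoter is active in hepatocytes and not in stellate cells. All were C57BL/6 mice of 3 months, and from 6 weeks of age they received for 6 weeks either a chow with 10 kcal percent fat or a methionine/choline deficient (MCD) diet, which causes steatosis and fibrosis. The groups were Cre Chow (6 livers), FLCN KO Chow (5), Cre MCD (5) and FLCN KO MCD (6). The vitamin A content of the diets is not given in the sources used here. Whole liver was sampled, so fewer cells of a type and less RNA per cell cannot be told apart in any value below.

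Reads on genes ranged from 13751347 to 21144388 per library. Levels are CPM, counts scaled to a common library total, on the trimmed mean of M-values (TMM) scale, which corrects library totals for composition. TMM factors were 0.8155 to 0.8892 in Cre Chow, 0.9186 to 0.9686 in FLCN KO Chow, 1.063 to 1.197 in Cre MCD and 1.06 to 1.163 in FLCN KO MCD, and did not overlap between the diets. Without them the median log2 fold change of all tested genes with the MCD diet moved to 0.43 in Cre mice and 0.27 in FLCN KO mice, and the share of calls that were higher moved from 50.9 to 81.9% and from 50 to 77%. Changes below are therefore relative to the middle of the tested genes.

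Sex was not labelled. Reads of Xist, which is made from the inactive X chromosome of females, were 222.8 to 417.5 CPM in 3 livers of every group and at most 1.28 CPM in the other 3 of Cre Chow, 2 of FLCN KO Chow, 2 of Cre MCD and 3 of FLCN KO MCD. The 5 chow libraries with a uniquely mapped share under 75% (Cre Chow 1, 5 and 6, FLCN KO Chow 1 and 3) were the 5 chow livers without Xist reads, so sex and mapping cannot be told apart on chow. Cre MCD 1 and FLCN KO Chow 2 held both Xist reads (222.8 and 369.7 CPM) and Y-linked reads above 20 CPM (27.8 and 26.8 CPM). Of the other livers with Xist reads, Cre Chow 2 (10.93 CPM), FLCN KO Chow 4 (11.8 CPM) and FLCN KO MCD 3 (12.11 CPM) held fewer Y-linked reads, and the rest held at most 3.15 CPM. Livers without Xist reads held 136.5 to 236.1 CPM. Cre MCD 3 held skeletal muscle transcripts: its 12 marker genes summed to 3257 CPM, against 156.6 CPM in the next library.

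Flcn itself was 31.7 ± 4.91 CPM (SD, n = 6) in Cre Chow and 20.4 ± 2.79 (n = 5) in FLCN KO Chow, with groups that did not overlap, a log2 fold change of -0.63 (SE 0.17) and an adjusted p of 0.0249 (edgeR quasi-likelihood test). On the MCD diet it was 29.2 ± 8.42 (n = 5) and 26.0 ± 5.13 CPM (n = 6), which did not pass the test (adjusted p = 0.567). Gene counts also cover exons outside the deleted one and cells without Cre, so they check the genotype labels only in part.

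Levels of the 9 genes spanned several orders of magnitude. Per kilobase of exon, Cre Chow livers held 7024 ± 1039 CPM of Ttr and 2539 ± 293 CPM of Rbp4, the secreted carrier pair made by hepatocytes, then 275 ± 97.8 CPM of Aldh1a1 (SD, n = 6). The intracellular enzymes of low level followed on the same per-kilobase scale: Rdh10 at 9.04 ± 1.36, Cyp26a1 at 6.82 ± 6.24, Bco1 at 4.16 ± 0.66 and Lrat at 3.80 ± 1.02 CPM, whose neighbours in this order lay within 1 SD of each other except that Rdh10 exceeded Bco1 and Lrat. Cyp26b1 (1.23 ± 1.23) and Aldh1a2 (0.0897 ± 0.0663) were lowest.

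**Figure D1:**
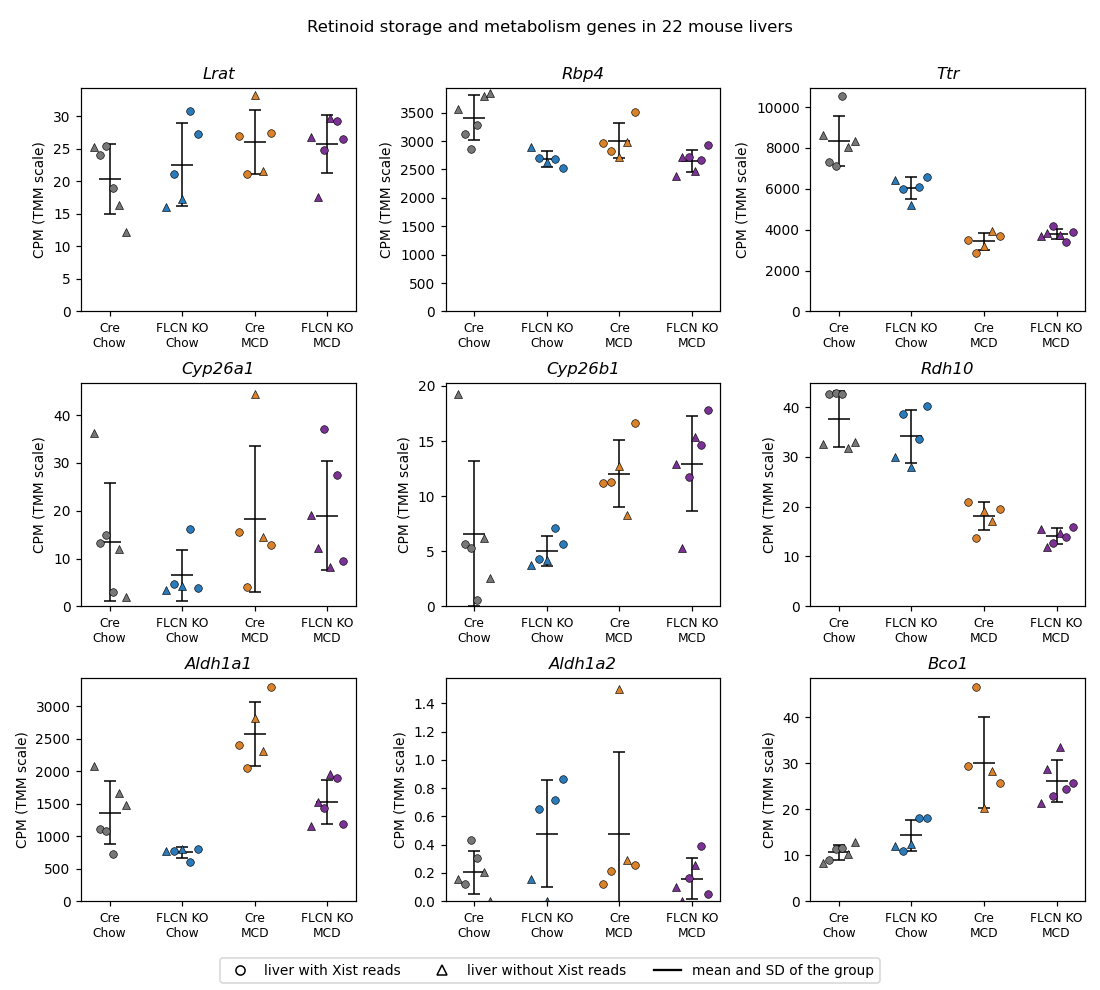
CPM on the TMM scale (vertical axes, linear from 0) of the 9 genes in each of 22 livers by group. Circles are livers with Xist reads and triangles those without, and black lines give the group mean and SD (lower ends are clipped at 0). Ttr and Rdh10 were low and Bco1 high in every MCD liver. Mean Aldh1a1 was lower in FLCN KO than in Cre livers on either diet, with overlap between genotypes on chow and none on MCD. Cyp26a1 spread widely within all groups, and Cyp26b1 did so in Cre Chow.

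The MCD diet changed 4 of the 8 tested genes in Cre mice and 5 in FLCN KO mice. Ttr and Rdh10 fell and Aldh1a1 and Bco1 rose in both genotypes, and Cyp26b1 rose in FLCN KO mice. In Cre mice 2 rose and 2 fell of 8, where 29.3% of all tested genes rose and 28.2% fell, and in FLCN KO mice 3 rose and 2 fell, where 22.5% rose and 22.5% fell. These shares are near the background. The median log2 fold change of the 8 genes was 0.40 in Cre and 0.53 in FLCN KO mice, against 0.01 and 0.0044 over all tested genes.

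Storage was represented by Lrat (chr3:82892579-82903973, minus strand, GRCm38), the esterifying enzyme, which is also widely used as a marker of stellate cells. Lrat was 12.2 to 25.4 CPM in Cre Chow (median 21.5), and 16.1, 21.1, 17.3, 30.9 and 27.3 CPM in the 5 FLCN KO Chow livers. In MCD livers it was 27.0, 21.1, 33.2, 21.6 and 27.4 CPM in Cre mice and 17.5 to 29.7 CPM in FLCN KO mice (median 26.7). All 4 groups overlapped, and no comparison passed the test. The diet difference was 0.36 on the log2 scale in Cre mice (SE 0.20, adjusted p = 0.124) and 0.19 in FLCN KO mice (SE 0.20, adjusted p = 0.45). On plain library totals the first of these passed (0.77, adjusted p = 0.002). The genotype difference was 0.15 on chow (SE 0.20) and -0.016 on the MCD diet (SE 0.19, adjusted p = 0.971).

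Retinol transport was represented by Rbp4 (chr19:38116629-38125281, minus strand) and Ttr (chr18:20665280-20674321, plus strand). Ttr ranged from 7092 to 10530 CPM in Cre Chow (median 8202) and was 6429, 5980, 5206, 6078 and 6602 CPM in FLCN KO Chow. With MCD it was 3520, 2883, 3193, 3920 and 3672 CPM in Cre mice and 3393 to 4166 CPM in FLCN KO mice (median 3784). Every MCD liver lay below every chow liver, and on chow every FLCN KO liver lay below every Cre liver. Ttr fell 2.42-fold with the diet in Cre mice (log2 fold change -1.28, SE 0.11, adjusted p = 4.04e-09) and 1.60-fold in FLCN KO mice (-0.68, SE 0.10, adjusted p = 2.28e-05). Both calls were made in each of the 22 fits that left out 1 liver.

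Rbp4, the carrier itself, moved less. It ranged from 2861 to 3853 CPM in Cre Chow (median 3422), was 2896, 2696, 2625, 2686 and 2523 CPM in FLCN KO Chow, 2966, 2828, 2724, 2989 and 3516 CPM in Cre MCD, and ranged from 2388 to 2923 CPM in FLCN KO MCD (median 2693). All pairs of groups overlapped. Its diet difference did not pass the test in either genotype (-0.18, SE 0.091, adjusted p = 0.0917 in Cre mice and -0.020, SE 0.091, adjusted p = 0.874 in FLCN KO mice). That of Cre mice passed without Cre Chow 3 (-0.23, adjusted p = 0.0374) or Cre MCD 5 (-0.24, adjusted p = 0.0332). On plain library totals both turned to higher with MCD (0.24, adjusted p = 0.0112, and 0.24, adjusted p = 0.0145), so no direction is given for this gene with diet.

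Oxidation of retinol to retinal is the step of Rdh10 (chr1:16105774-16133734, plus strand), a retinol dehydrogenase that is rate-limiting for retinoic acid in the embryo. Its level ranged from 31.8 to 42.9 CPM in Cre Chow (median 37.8) and was 30.04, 38.62, 28.01, 33.64 and 40.3 CPM in FLCN KO Chow. On the MCD diet it was 20.96, 13.66, 19.17, 17.2 and 19.6 CPM in Cre mice and 11.9 to 16.0 CPM in FLCN KO mice (median 14.3). No chow liver overlapped an MCD liver. Rdh10 fell 2.08-fold in Cre mice (-1.05, SE 0.13, adjusted p = 5.18e-07) and 2.41-fold in FLCN KO mice (-1.27, SE 0.12, adjusted p = 7.24e-08), calls that held in all 22 fits without 1 liver. On chow, the 3 Cre livers with Xist reads (mean 42.7 CPM) lay above the 3 without (32.5 CPM), and the drop with the diet was called in each kind of liver taken alone (-1.24 and -0.82 in Cre mice, adjusted p = 1.81e-05 and 0.00214).

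Aldh1a1 (chr19:20492715-20643465, plus strand) encodes retinal dehydrogenase 1, which oxidises retinal to retinoic acid and is abundant in hepatocytes. It ranged from 728.1 to 2083 CPM in Cre Chow (median 1294) and was 776.2, 766.1, 795.6, 607.7 and 802.4 CPM in FLCN KO Chow. Under MCD it was 2398, 2042, 2813, 2308 and 3297 CPM in Cre mice and 1159 to 1954 CPM in FLCN KO mice (median 1478). The diet groups overlapped in Cre mice, through Cre Chow 1, and did not overlap in FLCN KO mice. Aldh1a1 rose 1.89-fold in Cre mice (0.92, SE 0.20, adjusted p = 0.000632) and 2.03-fold in FLCN KO mice (1.02, SE 0.21, adjusted p = 0.000435). In the Cre livers without Xist reads alone the rise was 0.58 and missed the threshold (adjusted p = 0.0692). Its near copy Aldh1a7 lies on the same chromosome, and how reads that fit both were counted is not given in the sources used here; Aldh1a7 rose in Cre mice (0.77, SE 0.12, adjusted p = 2.12e-05) and was 0.30 in FLCN KO mice (adjusted p = 0.0519).

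Aldh1a2 (chr9:71215789-71296243, plus strand), a second retinal dehydrogenase that in liver marks mesothelial and mesenchymal cells, had 0 to 32 counts per library. The 32 counts (1.5 CPM) were in Cre MCD 3, which also had the highest summed mesothelial markers (31.4 CPM, next 12.99 CPM), adipocyte markers (6.47 CPM, next 0.811 CPM) and muscle markers; their part in the value was not tested. FLCN KO Chow 4, 5 and 2 followed with 13, 16 and 11 counts, and no other library exceeded 8. Exact permutation tests, two-sided and with 0.1 CPM added before taking log2, gave p = 0.299 and 0.197 for the diet in Cre and FLCN KO mice and 0.329 and 0.143 for the genotype on chow and MCD, each 0.329 after adjustment over the 4 tests, where 0.00216 was the smallest p possible. No difference in Aldh1a2 passed the test at these counts, and in FLCN KO Chow the 3 higher livers were those with Xist reads.

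The last source of retinal is dietary carotenoid. Bco1 (chr8:117095854-117133720, plus strand) encodes the oxygenase that cleaves beta-carotene into retinal. Bco1 ranged from 8.38 to 12.9 CPM in Cre Chow (median 10.9) and was 11.98, 10.99, 12.49, 17.98 and 18.0 CPM in FLCN KO Chow. On the MCD diet it was 29.3, 46.6, 20.3, 28.3 and 25.6 CPM in Cre mice and 21.3 to 33.6 CPM in FLCN KO mice (median 25.1). No chow liver overlapped an MCD liver of either genotype. The rise was 2.84-fold in Cre mice (1.51, SE 0.18, adjusted p = 6.53e-07) and 1.83-fold in FLCN KO mice (0.87, SE 0.18, adjusted p = 0.000627), and held in each of the 22 fits without 1 liver. The related Bco2, which cleaves carotenoids at another bond in mitochondria, fell in both genotypes (-1.63, adjusted p = 2.17e-07, and -1.30, adjusted p = 5e-06).

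Clearance of retinoic acid is the role of Cyp26a1 (chr19:37697798-37701536, plus strand) and Cyp26b1 (chr6:84571414-84593908, minus strand). Cyp26a1 is the classical target of retinoic acid signalling in liver, and receptor heterodimers of the retinoic acid and retinoid X receptors bind repeats of a short site in its promoter. Promoter stretches (RefSeq, GRCm38.p6, 250 bases before to 50 after each start) were found for 7 of the 9 genes in 9 windows. The receptor site AGGTCA was searched on both strands as direct repeats with 1, 2 or 5 bases between. Each copy of the repeat could also read AGTTCA, or it could read GGGTCA, or otherwise it could read GGTTCA. Such repeats stood in the windows of Cyp26a1 (5 between) and Bco1 (1 between), and nowhere in the windows of Lrat, Rbp4, Cyp26b1, Aldh1a1 or Aldh1a2. Of all 32851 windows, 0.0974% held the repeat with 5 between, 0.268% with 2 and 0.222% with 1, and 43.7% held at least 1 single site. The stretches around both matches are shown because they are the members' only repeats, with the repeat in capitals as it reads on the gene's strand; the searched letters run on the opposite strand. The first is chr19:37697731-37697797 and the second chr8:117095764-117095853, both on the plus strand and ending where the GENCODE gene begins.
Cyp26a1: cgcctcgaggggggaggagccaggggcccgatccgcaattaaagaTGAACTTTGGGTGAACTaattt
Bco1: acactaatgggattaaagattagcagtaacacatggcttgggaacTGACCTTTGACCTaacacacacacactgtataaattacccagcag
Read on the opposite strand the capitals are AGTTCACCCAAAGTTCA in Cyp26a1 and AGGTCAAAGGTCA in Bco1. Their leftmost base on the gene's strand lies at -32 and -56 from the RefSeq start. A match describes letters and not binding, and no match says only that these letters are not in that window.

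Cyp26a1 varied widely between mice of a group. Cre Chow livers ranged from 1.85 to 36.2 CPM (median 12.6), a 19.6-fold range, and FLCN KO Chow livers were 3.50, 4.69, 4.16, 16.1 and 3.93 CPM. Fed MCD, Cre livers were 15.5, 4.05, 44.5, 14.5 and 12.9 CPM and FLCN KO livers 8.33 to 37.1 CPM (median 15.6). All groups overlapped, and the highest Cre MCD value came from Cre MCD 3, the library with the most muscle transcripts. The highest FLCN KO MCD value came from FLCN KO MCD 3. That library held 71.1 CPM of muscle markers and the highest sum of exocrine pancreas markers (24.06 CPM, next 9.02 CPM). The diet difference in FLCN KO mice was 1.53 (SE 0.66) and missed the threshold (adjusted p = 0.0619). It passed when FLCN KO Chow 4 was left out (2.21, adjusted p = 0.0153) or FLCN KO MCD 4 (1.68, adjusted p = 0.0493), and when Cre Chow 1 or 6 or Cre MCD 2 or 3 was left out (1.53 each, adjusted p from 0.0442 to 0.0494). DESeq2 (1.55, adjusted p = 0.0442), only the groups compared (1.52, adjusted p = 0.0215) and plain library totals (1.78, adjusted p = 0.0267) passed as well. In Cre mice it was 0.44 (SE 0.62, adjusted p = 0.564) and turned to -0.20 without Cre MCD 3.

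Cyp26b1, which has the same activity and a different tissue pattern, ranged from 0.609 to 19.3 CPM in Cre Chow (median 5.48) and was 3.74, 4.34, 4.23, 7.11 and 5.66 CPM in FLCN KO Chow. On the MCD diet it was 11.2, 11.2, 12.7, 8.30 and 16.6 CPM in Cre mice and 5.29 to 17.8 CPM in FLCN KO mice (median 13.8). Cre Chow 1 was the highest chow liver for both Cyp26 genes, and every other chow liver had less Cyp26b1 than every Cre MCD liver. Cyp26b1 rose 2.57-fold with the diet in FLCN KO mice (1.36, SE 0.47, adjusted p = 0.0235). That call was lost without FLCN KO Chow 1 (1.27, adjusted p = 0.051) or FLCN KO Chow 2 (1.31, adjusted p = 0.0516), in livers without Xist reads alone (1.47, adjusted p = 0.178) and without the livers with Xist and Y-linked reads (1.31, adjusted p = 0.0595). In Cre mice the difference was 0.88 (SE 0.46, adjusted p = 0.107), and without Cre Chow 1 it was 1.56 and passed (adjusted p = 0.00187). It also passed with limma-voom (1.51, adjusted p = 0.0115), without the libraries of low mapped share (1.64, adjusted p = 0.00756), on plain library totals (1.3, adjusted p = 0.0149) and in livers with Xist reads alone (1.75, adjusted p = 0.00615). The diet response of Cyp26b1 did not pass the test of a difference between genotypes (interaction 0.48, SE 0.66, adjusted p = 0.709).

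Genotype on chow separated fewer genes. Rbp4, Ttr and Aldh1a1 were lower in FLCN KO than in Cre livers and none of the 8 was higher, where 3.1% of all tested genes were lower and 5.52% higher. Aldh1a1 was 1.81-fold lower (-0.86, SE 0.21, adjusted p = 0.0115), Ttr 1.38-fold (-0.46, SE 0.11, adjusted p = 0.00793) and Rbp4 1.27-fold (-0.35, SE 0.091, adjusted p = 0.0206). The Aldh1a1 groups overlapped, as Cre Chow 4 (728.1 CPM) lay below the highest FLCN KO Chow liver (802.4 CPM). The 3 genotype differences share the Cre Chow livers with the diet comparison in Cre mice. The Rbp4 call was lost without Cre Chow 5 (-0.31, adjusted p = 0.0518), FLCN KO Chow 4 (-0.35, adjusted p = 0.0522) or FLCN KO Chow 5 (-0.32, adjusted p = 0.0569), and under 7 of 14 other alternatives. Besides the splits by Xist reads and by mapped share given next, these were no filter on low counts (-0.32, adjusted p = 0.116), only the groups compared (-0.32, adjusted p = 0.0528), plain library totals (-0.19, adjusted p = 0.131) and the replicate number as a block (-0.305, adjusted p = 0.06).

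Sex as read from Xist stood beside these chow differences. Among Cre Chow livers Aldh1a1 was 975.2 CPM with and 1741 CPM without Xist reads, and Rbp4 was 3084 and 3737 CPM, in both cases without overlap between the 3 and the 3. In FLCN KO Chow the same means were 725.4 and 785.9 CPM for Aldh1a1 and 2635 and 2760 CPM for Rbp4. Within the livers with Xist reads Aldh1a1 differed by -0.43 between genotypes (adjusted p = 0.322), Ttr by -0.42 (adjusted p = 0.203) and Rbp4 by -0.23 (adjusted p = 0.347). Within those without, the values were -1.12 (adjusted p = 0.0341), -0.50 (adjusted p = 0.153) and -0.41 (adjusted p = 0.193). All 6 kept the direction, but only Aldh1a1 in livers without Xist reads passed, and these splits rest on 2 or 3 livers a group. Without the 5 libraries of low uniquely mapped share none of the 3 passed (adjusted p = 0.37, 0.168 and 0.357), and the chow livers left are those with Xist reads. With sex as a covariate in the fit of all livers the 3 calls were kept.

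The other 5 tested genes did not pass between genotypes on chow. Bco1 was 0.44 (SE 0.19, adjusted p = 0.153), Cyp26a1 -1.04 (SE 0.65, adjusted p = 0.353), Cyp26b1 -0.38 (SE 0.48, adjusted p = 0.685) and Rdh10 -0.14 (SE 0.12, adjusted p = 0.531). Lrat is given above.

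On the MCD diet Aldh1a1 alone passed between genotypes. It was 1.69-fold lower in FLCN KO livers (-0.76, SE 0.20, adjusted p = 0.0135), with no FLCN KO MCD liver as high as any Cre MCD liver, where 8.53% of all tested genes were lower and 8.06% higher. The call held in all 22 fits without 1 liver and in 13 of 14 other alternatives; it was lost in the livers without Xist reads alone (-0.74, adjusted p = 0.0881). Rdh10 was next, at -0.36 (SE 0.13, adjusted p = 0.0531), and it passed without Cre MCD 2 (-0.45, adjusted p = 0.0142) or FLCN KO Chow 3 (-0.36, adjusted p = 0.0479) and under 6 of the other alternatives, by DESeq2 among them (-0.365, adjusted p = 0.0377). Ttr, which differed on chow, was 0.14 (SE 0.11, adjusted p = 0.406) on the MCD diet, and Rbp4 was -0.18 (SE 0.091, adjusted p = 0.183).

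**Figure D2:**
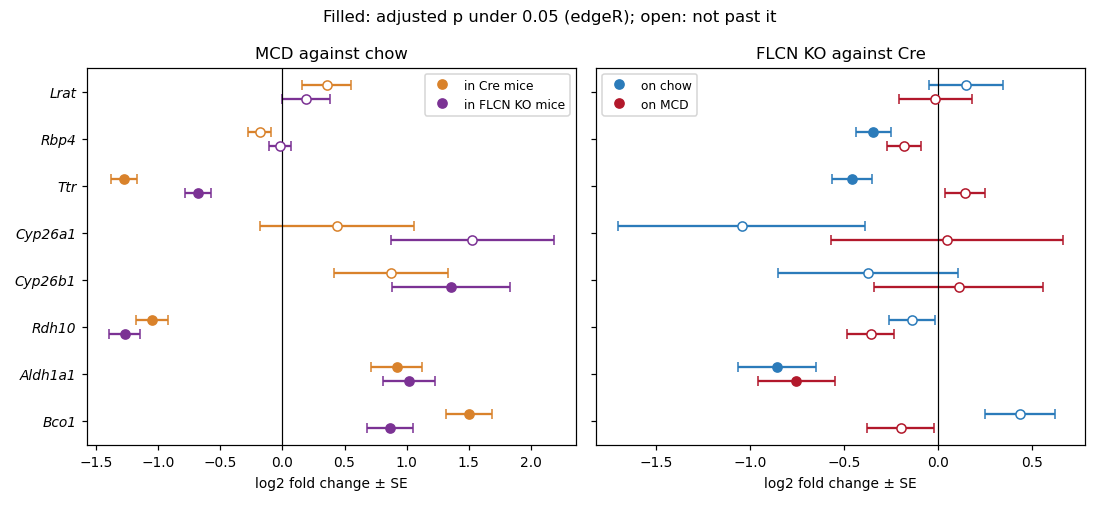
Log2 fold change with its SE (horizontal axes) of the 8 tested genes, for MCD against chow in each genotype (left) and FLCN KO against Cre on each diet (right). Filled points passed an adjusted p of 0.05 by edgeR and open points did not; Ttr, Rdh10, Aldh1a1 and Bco1 were filled in both genotypes on the left, and Aldh1a1 on both diets on the right.

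The diet response differed between genotypes for 1 of the 8 genes, Ttr, in a direct test of the interaction. Its drop was smaller in FLCN KO mice by 0.60 on the log2 scale (SE 0.15, adjusted p = 0.0163), where 3.29% of all tested genes had a higher and 5.54% a lower interaction. The 4 groups stood in the order Cre Chow, FLCN KO Chow, FLCN KO MCD and Cre MCD, with the last pair not separated beyond their spread. The interaction had the same sign in each kind of liver alone (0.60 with and 0.57 without Xist reads) and passed in neither (adjusted p = 0.146 and 0.329), and it missed with no filter on low counts (0.58, adjusted p = 0.0586) and without the libraries of low mapped share (0.557, adjusted p = 0.0983). For Bco1 the interaction was -0.64 (SE 0.26, adjusted p = 0.126), and for Aldh1a1, which rose in both genotypes, it was 0.10 (SE 0.29, adjusted p = 0.871).

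Of 65 other genes of retinoid handling, 50 were tested. With the MCD diet 14 rose and 24 fell in Cre mice and 10 rose and 26 fell in FLCN KO mice, shares of 28 and 48%, and 20 and 52%. Of all tested genes 29.3% rose and 28.2% fell in Cre mice and 22.5% rose and 22.5% fell in FLCN KO mice, so the shares that rose were near the background. Their median log2 fold change was -0.31 and -0.35. Several of these genes belong to families of near copies (Ces1, Rdh, Aox), whose reads cannot be assigned with certainty.

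Beside the 28.2 and 22.5% of all tested genes that fell in Cre and FLCN KO mice, 6 of 10 genes of retinyl ester synthesis and hydrolysis fell and 2 rose in either genotype. Of 16 genes of retinol and retinal interconversion 9 fell and 4 rose in Cre mice and 8 fell and 5 rose in FLCN KO mice. Pnpla3, a lipid droplet hydrolase with retinyl ester activity, was 9.89 ± 8.49 CPM in Cre Chow and 11.4 ± 10.7 in FLCN KO Chow, and had 0 to 5 counts in every MCD library (0.160 and 0.0889 CPM). Lipc (hepatic lipase) fell from 250.1 to 47.0 CPM in Cre and from 198.9 to 49.2 CPM in FLCN KO mice (log2 fold change -2.01 in the latter, SE 0.16, adjusted p = 3.56e-09). Rdh7, a dehydrogenase of retinol and steroids, fell from 1541 ± 54 to 284.5 ± 50.8 CPM in Cre mice (-2.44, SE 0.14, adjusted p = 2.2e-11) and from 1280 ± 119 to 566.4 ± 122.1 CPM in FLCN KO mice (-1.18). Adh4, a retinol-oxidising alcohol dehydrogenase, fell in both genotypes (-1.78, adjusted p = 2.12e-07 in Cre mice and -2.02, adjusted p = 5.41e-08 in FLCN KO mice). Adh7, of the same family, rose in both (2.32, adjusted p = 1.2e-10, and 1.72, adjusted p = 3.11e-08).

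Downstream of retinal, Aox3, an aldehyde oxidase, fell in both genotypes (-2.60, SE 0.44, and -2.63, SE 0.42). It was 1 of 3 genes of retinoic acid synthesis, of 5 tested, that fell in both genotypes, with Aox1 and Aldh8a1 (28.2 and 22.5% of all tested genes fell). The other 2, Aldh1a3 (1.86) and Aldh1a7, rose in Cre mice and did not pass in FLCN KO mice. Fabp5, which carries retinoic acid to a nuclear receptor of fatty acids, fell in both genotypes (-2.22, SE 0.40, adjusted p = 8.24e-05 in Cre mice and -2.43, SE 0.39, adjusted p = 3.25e-05 in FLCN KO mice). Lpl, which releases fatty acids and retinyl esters from lipoproteins, rose from 31.0 to 318.9 CPM in Cre mice (3.37, SE 0.27) and rose in FLCN KO mice (1.20, SE 0.26), and Cd36, a lipid scavenger receptor, rose from 42.4 to 400.6 CPM (3.24, SE 0.30) and rose in FLCN KO mice as well (2.40, SE 0.31). Of the 6 retinoic acid and retinoid X receptors, Rxra fell in both genotypes (-0.39 and -0.38), Rarg rose in Cre mice (0.49) and Rarb fell in FLCN KO mice (-0.67).

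**Figure D3:**
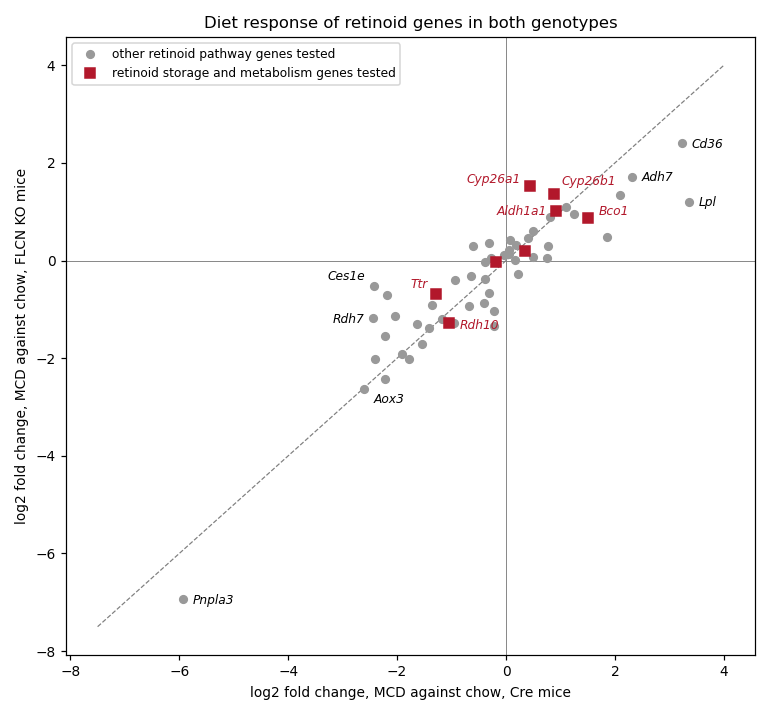
Log2 fold change with the MCD diet in Cre mice (horizontal) against FLCN KO mice (vertical) for the 8 tested genes (red squares) and other tested retinoid genes (grey circles). The dashed line marks equal change; Pnpla3 lies far below the rest on few MCD counts.

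Between genotypes on chow, 8 of the 50 other genes were higher (16%, against 5.52% of all tested genes) and 5 lower (10%, against 3.1%). On MCD 6 were higher (12%, against 8.06%) and 6 lower (12%, against 8.53%). Lpl was higher in FLCN KO Chow (1.59, SE 0.25, adjusted p = 0.000257) and had an interaction of -2.16 (SE 0.35, adjusted p = 0.00116), and Cd36 (1.23, adjusted p = 0.00855), Rarres1, a retinoic acid responsive gene (1.65, adjusted p = 0.0151), and Dhrs9 (1.04, adjusted p = 0.0295) were also higher on chow.

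The esterase Ces1e and the dehydrogenases Rdh7 and Rdh5 also differed in their diet response. Ces1e was 1.83-fold lower in FLCN KO mice on chow (-0.87, SE 0.14, adjusted p = 0.00036) and higher on MCD (1.03, SE 0.15, adjusted p = 4.83e-05), with an interaction of 1.91. Rdh7 (0.99, adjusted p = 3.13e-05) and Ces1d (0.93, adjusted p = 0.027) were higher in FLCN KO mice on MCD. Adh7 (-0.79, adjusted p = 0.000751), Rdh5 (-0.54, adjusted p = 0.0189) and Lipe, hormone-sensitive lipase (-0.52, adjusted p = 0.0192), were lower there. The count of genotype calls on chow fell from 13 to 5 without the libraries of low mapped share, to 6 in livers with and 6 in livers without Xist reads, to 7 with only the groups compared or without FLCN KO Chow 4, and to 8 without Cre Chow 5. That on MCD fell from 12 to 2 in livers without Xist reads, to 7 without the livers with Xist and Y-linked reads and to 7 without Cre MCD 1.

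**Figure D4:**
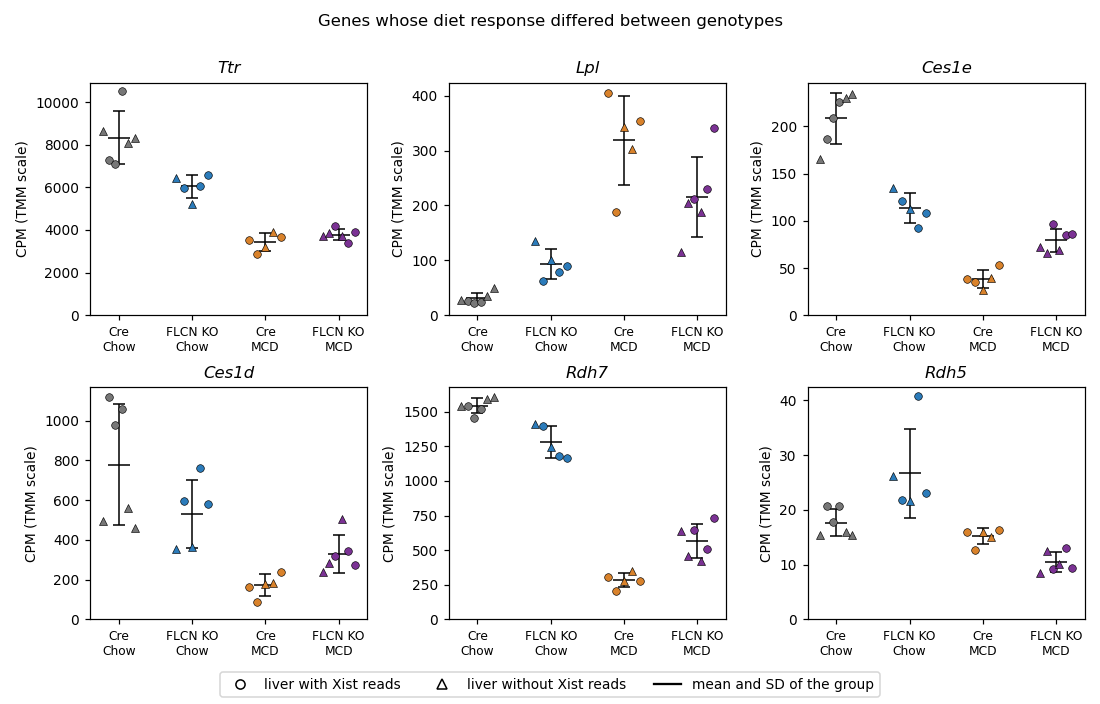
CPM on the TMM scale (vertical axes, linear from 0) per liver and group for Ttr and 5 other retinoid genes whose interaction of genotype and diet passed an adjusted p of 0.05. Circles are livers with and triangles livers without Xist reads, and black lines give the mean and SD. Lpl was lowest in Cre Chow, whereas Ces1d, Ces1e and Rdh7 were lowest in Cre MCD.

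Cell markers were read in the same livers. Hepatocyte markers (9 genes, Alb the most abundant with 78% of the sum) summed to 131600 ± 18800 CPM in Cre Chow, 110300 ± 19780 in FLCN KO Chow, 90780 ± 14260 in Cre MCD and 73030 ± 8681 in FLCN KO MCD. With the diet 7 of 9 fell in Cre mice and 6 in FLCN KO mice, where 28.2 and 22.5% of all tested genes fell. Hepatocyte markers moved in the direction of Ttr and Rdh10 with diet, and against Aldh1a1 and Bco1. For FLCN KO against Cre on chow 0 of 9 were higher and 1 lower, where 5.52% of all tested genes were higher and 3.1% lower. The median log2 fold change of the 9 markers was -0.311. That was the direction of Rbp4, Ttr and Aldh1a1 in the same comparison. Stellate cell markers (16 genes, Dcn with 39.5%) summed to 656.2 ± 159.6, 666.1 ± 122.1, 811.6 ± 115.3 and 679.7 ± 55.5 CPM in the same order, and all groups overlapped, as they did for Lrat. The highest sum (956.3 CPM) was in Cre MCD 3, the library with the most muscle transcripts. Des had the largest rise of the list with the diet in Cre mice (log2 fold change 2.83). The part of muscle in these values was not tested. Of these 16, 5 rose and 4 fell with the diet in Cre mice, shares near the 29.3 and 28.2% of all tested genes. In FLCN KO mice 1 rose and 3 fell, where 22.5% of all tested genes rose and 22.5% fell.

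Markers of activated myofibroblasts (8 genes, Spp1 with 49.4%) summed to 97.7 ± 27.9, 186.8 ± 70.3, 288.6 ± 68.5 and 151.5 ± 39.5 CPM in Cre Chow, FLCN KO Chow, Cre MCD and FLCN KO MCD. On chow 1 of 8 was higher in FLCN KO mice and 0 lower, where 5.52% of all tested genes were higher and 3.1% lower. The 1 was Spp1 (log2 fold change 1.21, adjusted p = 0.00119 by edgeR). All 8 rose with the diet in Cre mice, where 29.3% of all tested genes rose. On MCD 7 of 8 were lower in FLCN KO than in Cre mice, where 8.53% of all tested genes were lower. The part of cell composition in the values of the 9 genes was not tested. No marker of these 3 lists was at 0 in all libraries, while Lep of the adipocyte and Amy2a5 of the pancreas list had at most 3 counts in every library.

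**Figure D5:**
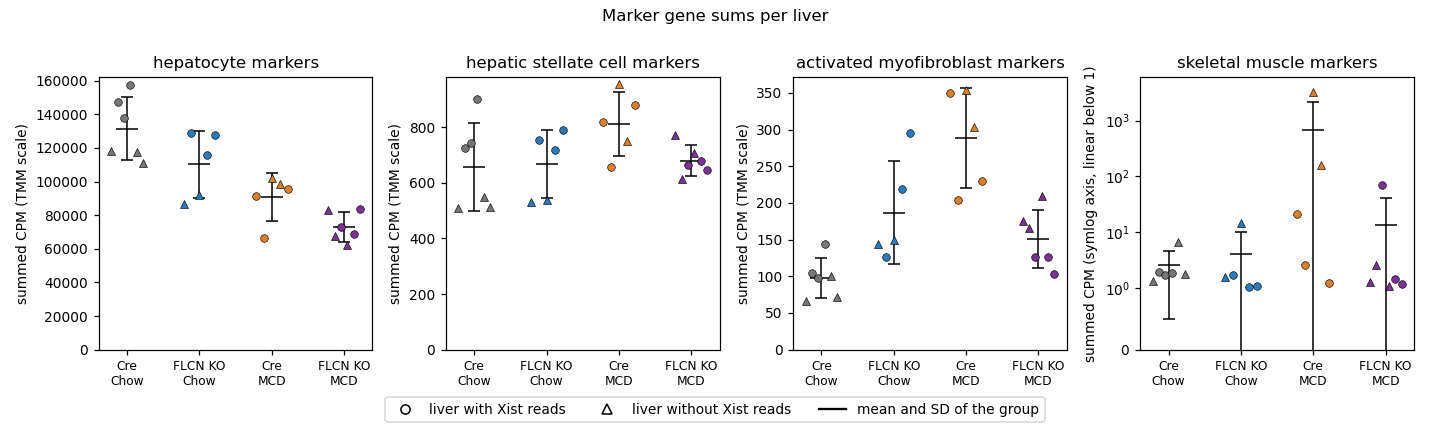
Summed CPM (vertical axes) of marker genes per liver and group for hepatocytes, stellate cells, activated myofibroblasts and skeletal muscle; the last axis is symmetric-logarithmic. Circles are livers with and triangles livers without Xist reads, and black lines give the mean and SD, clipped at 0. Hepatocyte sums were lower on MCD, stellate cell sums overlapped between all groups, myofibroblast sums were highest in Cre MCD, and muscle reached 3257 CPM in Cre MCD 3 alone.

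The genes most like each member, by Pearson r of log2 CPM over the 22 livers, are given as a description, since the groups and their library factors are shared by all points. Lrat was most like Ddit4l (r = 0.824), Dag1 (0.822), Samd9l (0.803), Sparcl1 (0.799) and Gdf10 (0.782), and its values after removing group means were as close (0.747 to 0.91). Cyp26a1 was most like Wwc1 (0.865), followed by Morc2a (0.721), Rapgef2 (0.711), Ppp4r4 (0.693) and Frat1 (0.689), and within groups these r were 0.567 to 0.889. Cyp26b1 was most like Gosr2 (0.846), Antxr2 (0.844), Tmem209 (0.811), Sec31a (0.795) and Mtrr (0.795), with 0.636 to 0.813 within groups.

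Ttr was most like Fxyd1 (0.975), Apoc1 (0.973), Tecr (0.972), Derl2 (0.972) and Oaz1 (0.965), and within groups these r were 0.433 to 0.74. Rdh10 was most like Rgn (0.975), Iyd (0.974), Pon1 (0.963) and Serpinf1 (0.962), with 0.463 to 0.763 within groups. Bco1 was most like Mcm2 (0.96), Wfdc3 (0.957), Lsm3 (0.956), Psat1 (0.956) and Pgm2 (0.95), with 0.728 to 0.861 within groups. Aldh1a1 was most like Mettl9 (0.94), Gorasp2 (0.9), Txndc5 (0.895), C730002L08Rik (0.892) and Srp72 (0.888), with 0.465 to 0.716 within groups. Rbp4 was most like Stard10 (0.857), Fitm1 (0.84), Gnas (0.815), Mycbp (0.802) and Fancl (0.792), with 0.37 to 0.719 within groups.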

How the data were processed

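The authors demultiplexed reads with bcl2fastq, trimmed single-end reads with Trimmomatic, aligned them with STAR to GRCm38 and deposited HTSeq counts per gene as whole numbers without normalization. Tool versions, the annotation release, the strand setting and any collapse of molecular identifiers are not given in the sources used here, so errors from counting cover counting only. All 22 columns matched a sample label. Replicates are different mice, numbered by the labels.

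Genes averaging 10 or more counts per library were tested in R 4.3.3 with edgeR 4.0.16 (TMM, 1 fit of 4 group means, two-sided quasi-likelihood test, Benjamini-Hochberg over 14062 genes, adjusted p under 0.05). SE is the absolute log2 fold change over the square root of F. The fit was tested on simulated data. Positions and exon lengths are from GENCODE M21. The members and lists were chosen with earlier results of these data known.

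Named were all members, Flcn, up to 6 called pathway genes per comparison (mean of at least 1 CPM, largest change), the 5 genes most like each member, and leading markers; Aldh1a3, Aldh1a7, Aldh8a1, Aox1, Bco2, Retsat, Tgm2 and the receptors, and values of rule-named genes in other comparisons, were added after their values were seen. The marker Tf did not match 1 row and was not used. Alternatives were DESeq2 1.42.0, limma-voom (limma 3.58.1), RLE factors, other filters, the groups compared alone, a replicate block, the uniquely mapped share (from the study's library statistics) or sex as covariate, leaving out the 5 libraries under 75% of it, and leaving out each liver; plain library totals, livers with or without Xist reads alone, and leaving out the 2 livers with Xist reads and over 20 CPM of Y-linked reads were added after seeing the data. Some genes that the rule names are not reported here.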

Additional observations from a re-analysis of the deposited data

Results flagged for a closer look

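Dixon's criterion marked 5 of the 36 sets formed by a gene and a group, where 1.8 would be marked if each had a chance of 1 in 20. FLCN KO MCD 2 was the lowest of its group for Lrat (17.52 CPM) and for Cyp26b1 (5.294 CPM). FLCN KO Chow 4 was the highest of its group for Cyp26a1 (16.1 CPM) and the lowest for Aldh1a1 (607.7 CPM). Cre MCD 3, the library with the highest muscle, mesothelial and adipocyte markers, was the highest of its group for Aldh1a2 (1.5 CPM).

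The diet response differed between Cre and FLCN KO mice, by the test of the interaction on the log2 scale, for Ttr (0.599), Lpl (-2.16), Ces1d (1.49), Ces1e (1.91), Rdh5 (-1.13), Rdh7 (1.26), Retsat (0.902) and Tgm2 (-0.694). Retsat saturates retinol and Tgm2 is a transglutaminase induced by retinoic acid. Positive values mean a smaller drop or a larger rise in FLCN KO mice.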

How the results depend on the processing

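Of the log2 fold changes of the members under all alternatives, 1341 kept direction and call, 25 lost the call, 25 gained it and 41 turned in sign; the cause was not tested. The rises of Bco1 and Aldh1a1 and the drops of Ttr and Rdh10 with the diet kept their call in all 22 fits without 1 liver. Same-numbered livers deviated together little on average (mean r from -0.0842 to 0.129, single pairs from -0.551 to 0.47). The main fit assumed no pairing, and such r cannot exclude it. With the replicate block 4, 5, 2, 1 and 1 members and 37, 32, 10, 13 and 7 other retinoid genes were called. The order is diet in Cre, diet in FLCN KO, genotype on chow, genotype on MCD and interaction.

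Members called for the diet in Cre mice went from 4 to 7 on plain library totals. Those for genotype on chow went from 3 to 0 without the libraries of low uniquely mapped share and in livers with Xist reads, and to 1 in livers without. Those for genotype on MCD went from 1 to 2 with DESeq2, RLE factors, at least 10 counts in every library, without the low-share libraries, and with the mapped share or sex as covariate, and to 0 in livers without Xist reads. The interaction went from 1 to 0 with no filter, without the low-share libraries and in either kind of liver. Leaving out 1 liver gave 4 to 5, 4 to 6, 2 to 3, 1 to 2 (2 without Cre MCD 2 or FLCN KO Chow 3) and 1 to 1 members in the same order.

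Other retinoid genes called on chow (13) were 7 with only the groups compared, 5 without the low-share libraries, 6 in livers with and 6 in livers without Xist reads, and 7 to 15 without 1 liver (8 without Cre Chow 5, 7 without FLCN KO Chow 4). On MCD (12) they were 2 in livers without Xist reads, 7 without the 2 livers with Xist reads and over 20 CPM of Y-linked reads, and 7 to 13 without 1 liver (7 without Cre MCD 1). For the interaction (8) they were 14 with the mapped share as covariate, 2 in livers without Xist reads, 5 without the livers with both reads and 7 to 10 without 1 liver. Diet calls were 37 to 38 in Cre and 29 to 37 in FLCN KO mice without 1 liver.

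Signs turned as follows on the log2 scale. On plain library totals the values were 0.239 and 0.241 for Rbp4 with diet in Cre and FLCN KO mice, 0.00456 for Rdh10 on chow and -0.0479 for the Aldh1a1 interaction. Without the low-share libraries they were -0.0372 for Lrat and 0.00722 for Rbp4 with diet in FLCN KO mice, 0.566 for Cyp26b1 on chow, and -0.458 for Cyp26b1 and -0.329 for Aldh1a1 in the interaction. With the mapped share as covariate they were 0.0623 for Rbp4 with diet in FLCN KO mice, 0.0279 for Lrat on MCD and -0.114 for the Aldh1a1 interaction. In livers with Xist reads they were 0.00893 and 0.0723 for Rbp4 with diet in Cre and FLCN KO mice, 0.567 for Cyp26b1 on chow, 0.0953 for Lrat on MCD, and -0.386 for Cyp26b1 and -0.356 for Aldh1a1 in the interaction. In livers without Xist reads they were -0.0732 for Lrat on chow, -1.18 for Cyp26a1 and 0.19 for Bco1 on MCD. With limma-voom Cyp26b1 was 0.28 on chow and -0.231 in the interaction, with the replicate block Lrat was 0.0426 on MCD, and without the livers with both reads Cyp26a1 was -0.00742 on MCD. Without 1 liver the ranges were -0.2 to 1.02 for Cyp26a1 with diet in Cre mice, -0.0503 to 0.00855 for Rbp4 with diet in FLCN KO mice, -0.621 to 0.309 for Cyp26b1 on chow (without Cre Chow 1), and on MCD -0.0839 to 0.0865 for Lrat, -0.26 to 0.686 for Cyp26a1, -0.00379 to 0.271 for Cyp26b1 and -0.313 to 0.0135 for Bco1 (without Cre MCD 2). For the interaction they were -0.2 to 0.729 for Cyp26b1 and -0.0614 to 0.229 for Aldh1a1. Counts of Aldh1a2, and of Pnpla3 on MCD, were low.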
